A study of Mus musculus with 5 samples.

Results

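The genes described are the nuclear genes for mitochondrial respiratory complex III, complex IV and ATP synthase, measured in cancer cells taken from mouse lungs. They were chosen by symbol, as every gene of the deposited expression table whose symbol starts with Uqcr, with Cox and a digit, or with Atp5. The rule found 50 of 23771 genes, and no measured value was used in it. By function, 8 encode subunits of complex III, 16 encode subunits or tissue isoforms of complex IV, 9 encode assembly factors of complex IV, and 17 encode subunits of ATP synthase. They lie on 18 chromosomes, with at most 6 on any of them.

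The cells came from lungs of female BALB/c mice, 11 weeks old at collection, that had received medium intravenously 3 times per week for 3 weeks and then 25000 CD90.1-expressing 4T1 cells, a mouse mammary carcinoma line marked with a Thy1 variant. In the TSF group the medium carried tumor-secreted factors, collected from pieces of 4T1 primary tumors and pooled from 3 tumors. In the CM group it was the same culture medium incubated without tumor. Lungs were taken 16 days after the cancer cells were given, a stage called colonization, and both groups carried the same cancer cell line. Each group was 1 single-cell library pooled from the lungs of 3 mice, so differences between mice were not measured, no test between groups was possible, and no value below has a replicate error.

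The values are mean CP10k, the UMIs (single RNA molecules) of a gene per 10000 UMIs of a cell, averaged over the cells that the authors annotated as cancer cells, 139 from TSF lungs and 29 from CM lungs. These cells held 3937739 and 726849 UMIs in total, with medians of 26615 and 27679 UMIs per cell. The log2 ratio set TSF over CM after 1 CP10k was added to both means, which understates the differences of genes of low level. A gene was followed where its UMIs were found in 10% or more of the cancer cells of a library, and called past the fold at a log2 ratio of 0.5 or more in either direction, which is 1.41-fold on that scale. Because the 5' assay counts molecules, a level does not scale with gene length, and levels of different genes are set side by side on that ground. How evenly the RNAs of different genes were captured and assigned was not examined.

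Complex III passes electrons from ubiquinol to cytochrome c, complex IV passes them from cytochrome c to oxygen, and both pump protons across the inner mitochondrial membrane. ATP synthase lets the protons return through its membrane ring of c subunits and uses the rotation to make ATP in its catalytic head, F1. Each enzyme joins 1 or more subunits encoded by mitochondrial DNA to many encoded in the nucleus, most of which are short proteins, and complex IV needs dedicated factors that deliver copper and haem.

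The c subunit is the member whose nucleotide sequence was compared between genes. Its 3 genes, Atp5g1, Atp5g2 and Atp5g3, encode different import sequences followed by the same mature protein. The end that all 3 proteins share without a difference was 78 residues, which is 234 coding bases. It is printed for each gene because the capitals, at the 63 of 234 positions where the 3 genes do not all have the same base, are what tells their reads apart in this stretch. The genes lie on the minus strand of GRCm38 at chr11:96068852-96075670 (Atp5g1), chr15:102662864-102672352 (Atp5g2) and chr2:73908447-73911326 (Atp5g3), and the bases printed are exonic coding sequence, spliced and read 5′ to 3′.
Atp5g1: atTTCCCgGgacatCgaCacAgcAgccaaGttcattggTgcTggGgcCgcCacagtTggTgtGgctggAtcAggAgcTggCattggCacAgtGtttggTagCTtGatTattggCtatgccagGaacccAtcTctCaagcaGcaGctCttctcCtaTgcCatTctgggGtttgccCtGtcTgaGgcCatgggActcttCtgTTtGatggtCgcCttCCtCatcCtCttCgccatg
Atp5g2: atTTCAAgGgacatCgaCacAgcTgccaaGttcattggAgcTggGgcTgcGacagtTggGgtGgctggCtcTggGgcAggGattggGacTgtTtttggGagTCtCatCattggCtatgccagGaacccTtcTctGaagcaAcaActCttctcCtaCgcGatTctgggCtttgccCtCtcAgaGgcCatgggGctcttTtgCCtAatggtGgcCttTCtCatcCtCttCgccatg
Atp5g3: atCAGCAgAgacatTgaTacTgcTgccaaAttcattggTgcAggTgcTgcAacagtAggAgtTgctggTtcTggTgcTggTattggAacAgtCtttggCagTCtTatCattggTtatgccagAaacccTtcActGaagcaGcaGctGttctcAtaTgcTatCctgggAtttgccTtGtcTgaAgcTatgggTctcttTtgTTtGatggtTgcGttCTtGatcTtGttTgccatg

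Atp5g1 and Atp5g2 differed at 36 of these bases (84.6% identical), Atp5g1 and Atp5g3 at 50 (78.6%), and Atp5g2 and Atp5g3 at 53 (77.4%). The protein is thus constant where the RNAs differ, and the levels of the 3 genes can be read apart as far as reads cover such positions. The assay is a 5' one, and where its reads fell in these genes was not examined.

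Atp5mpl, with the highest log2 ratio of the members, is printed for its size. It encodes a proteolipid of ATP synthase, a small membrane subunit of 58 residues. Its gene lies at chr12:111961375-111966977 on the minus strand of GRCm38, and the 174 coding bases without the stop codon, from exonic sequence, are given 5′ to 3′ in lower case.
Atp5mpl: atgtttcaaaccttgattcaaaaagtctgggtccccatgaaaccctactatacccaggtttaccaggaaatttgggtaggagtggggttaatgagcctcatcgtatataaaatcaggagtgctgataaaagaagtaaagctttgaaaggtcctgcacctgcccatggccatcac

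The RNAs of these complexes were, as a group, more abundant in the TSF cancer cells. Of the 50 genes, 45 passed the filter, 37 of them had a higher mean in the TSF library, and 9 were past the fold in that direction. None was past it in the other. Over all 10201 genes that passed the filter, 1.14% were past the fold toward TSF and 2.87% toward CM, and 40.3% had a log2 ratio above 0. The median log2 ratio was 0.21 for the 45 members and -0.03 for all genes. Summed over all 50 genes, the members made up 224.4 CP10k in TSF cells and 169.3 in CM cells, a ratio of 1.33.

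**Figure D1:**
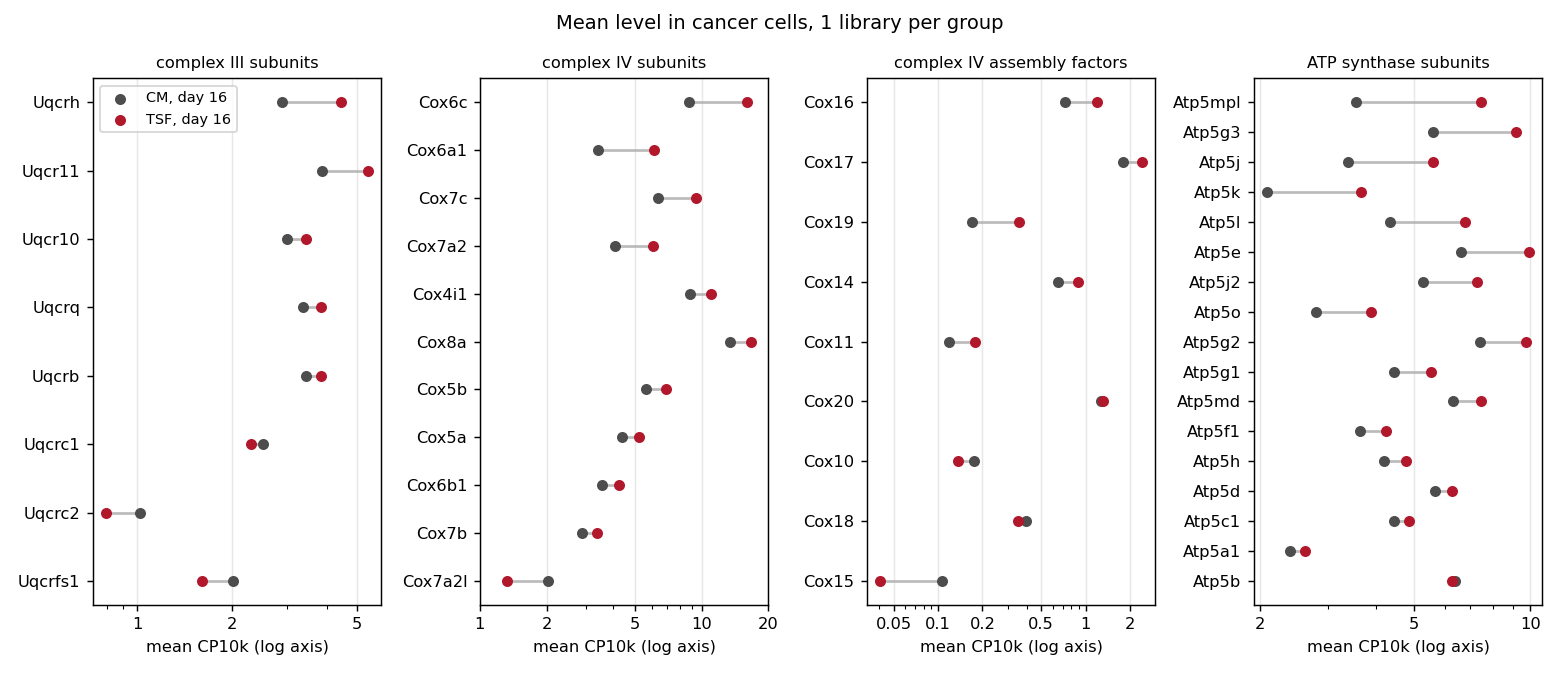
Mean CP10k (horizontal log axis, a separate range in each panel) of the 45 members that passed the filter, in cancer cells of the CM library (grey points) and the TSF library (red points) of day 16, ordered in each panel by log2 ratio. Most red points lie to the right of the grey ones, and the complex III core proteins, Uqcrfs1, Cox7a2l, 3 assembly factors and, by a margin that turns under other scalings, Atp5b lie the other way.

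The background depends on which genes are set beside the members, since they are abundant and short. Among genes with a mean of at least 1 CP10k over both libraries, 5.7% were past the fold toward TSF, against 9 of 37 members. Among genes for proteins of at most 150 residues, 6.57% were, against 9 of 30 members. With both limits together, an alternative added after the data were seen, the background was 13.1% (43 of 327 genes) and the members stood at 9 of 27. In that last set 73.1% of the genes had a log2 ratio above 0 and their median was 0.20, while 26 of 27 members were above 0 with a median of 0.36. The members' share lay above each of these backgrounds, and other short, abundant RNAs also lay toward TSF.

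Complex III showed the smallest difference of the 3 enzymes and was split by the kind of subunit. Its 8 genes had a median log2 ratio of 0.14 and a sum of 25.7 CP10k in TSF cells and 22.1 in CM cells. None was past the fold. The 5 small accessory subunits were higher in TSF cells, and the 3 large ones that carry the core and the Rieske centre were lower. These 3 also had the lowest levels of the 8 in both libraries. Kind of subunit, length and level were not separated.

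Uqcrh, the acidic hinge protein that lies near the cytochrome c docking site, had 4.44 CP10k in TSF cells and 2.89 in CM cells (log2 ratio 0.48, just inside the fold used). Uqcr11, the smallest subunit and the most abundant RNA of this complex in both libraries, had 5.43 and 3.87 CP10k (0.40). The other small subunits were closer. Uqcr10 had 3.44 and 3.00 CP10k (0.15), Uqcrq 3.84 and 3.36 (0.15), and Uqcrb 3.85 and 3.45 (0.12). Together the 5 small subunits summed to 21.0 CP10k in TSF cells and 16.6 in CM cells, a ratio of 1.27.

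The core proteins Uqcrc1 and Uqcrc2 resemble mitochondrial processing peptidase subunits and face the matrix. Uqcrc1 had 2.31 CP10k in TSF cells and 2.51 in CM cells (log2 ratio -0.08), and Uqcrc2 had 0.797 and 1.02 CP10k (-0.17), the lowest level of the complex in both libraries. Uqcrfs1, the Rieske iron-sulfur protein that moves electrons toward cytochrome c1, had 1.61 and 2.01 CP10k (-0.21). These 3 summed to 4.71 CP10k in TSF cells and 5.53 in CM cells, a ratio of 0.851. Each of these differences is smaller than the fold used, and their spread between mice is unknown.

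In complex IV the subunits of cytochrome c oxidase that every tissue uses were higher in TSF cells, with 1 exception. Of the 16 genes, 11 passed the filter, 10 of these had a positive log2 ratio, and 3 were past the fold. The median was 0.29. All 16 summed to 86.3 CP10k in TSF cells and 63.2 in CM cells, a ratio of 1.36.

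Cox6c, a small single-span subunit, had 16.0 CP10k in TSF cells and 8.73 in CM cells, with a log2 ratio of 0.81. It was the complex IV gene with the largest difference. Cox6a1, the ubiquitous form of a subunit at the dimer interface, had 6.08 and 3.42 CP10k (0.68). Cox7c, another single-span subunit, had 9.42 and 6.32 CP10k (0.51). Cox7a2, the ubiquitous form of subunit VIIa, came just inside the fold with 6.00 and 4.07 CP10k (0.47).

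The remaining common subunits had ratios between 0.18 and 0.29. Cox8a was the most abundant member of the complex in both libraries, with 16.6 CP10k in TSF cells and 13.4 in CM cells (0.29). Cox4i1, the ubiquitous form of the largest nuclear subunit, had 11.0 and 8.82 CP10k (0.29). Cox6b1, which faces the intermembrane space, had 4.24 and 3.54 CP10k (0.21), and Cox7b had 3.39 and 2.88 (0.18). Cox5a and Cox5b, on the matrix side, had 5.23 and 4.37 CP10k (0.21) and 6.88 and 5.63 CP10k (0.25).

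Cox7a2l stood apart from them. It encodes a protein related to subunit VIIa that links complexes III and IV in supercomplexes and is not a subunit of every complex IV. It had 1.32 CP10k in TSF cells and 2.02 in CM cells, a log2 ratio of -0.38, the lowest of all 45 members that passed the filter. Its UMIs were nonetheless found in 123 of 139 TSF cells (88.5%) and only 23 of 29 CM cells (79.3%), so its mean and its share of cells went opposite ways. Without Cox7a2l, a setting added after its value was seen, the median of the complex was 0.29 over 10 genes, and all 10 were positive.

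The tissue isoforms of complex IV were at or near 0, and the forms measured in these carcinoma cells were the ubiquitous ones. Cox4i2, an isoform of lung and smooth muscle, and Cox8b, of heart and muscle, had no UMI in any cell, which allows shares of up to 2.16% of the TSF cells and 10.3% of the CM cells with a UMI. Cox7a1, the heart and muscle form of subunit VIIa, had a UMI in 11 of 139 TSF cells (7.91%, exact 95% interval 4.02 to 13.7%) and in 0 of 29 CM cells, which allows up to 10.3%. That difference was not detectable with 29 cells. Cox6b2, the testis form, was seen in 2 TSF cells and in no CM cell, and Cox6a2, of heart and muscle, in 1 CM cell and in no TSF cell. Shares in a cell type that should lack these genes were not analysed here, so background from free RNA is not known.

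The assembly factors that the Cox rule also takes are not subunits and were at much lower levels. Their 9 genes summed to 6.89 CP10k in TSF cells and 5.42 in CM cells. The median log2 ratio was 0.07, and none was past the fold. On this scale differences at such levels are compressed. With a pseudocount of 0.1 CP10k the median was 0.34. Cox16 (0.65) and Cox19 (0.76) were then past the fold toward TSF and Cox15 (-0.55) toward CM. At that setting 10.1% of all genes were past the fold toward TSF and 21.9% toward CM, and Cox15 passed the filter only through the CM library.

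Factors for copper delivery were on the TSF side. Cox17, the copper chaperone and the most abundant of the 9, had 2.43 CP10k in TSF cells and 1.80 in CM cells (log2 ratio 0.29). Cox19, which acts in the same copper pathway, had 0.357 and 0.170 CP10k (0.21), and its UMIs were found in 54.7% of TSF cells (76 of 139, interval 46.0 to 63.1%) against 27.6% of CM cells (8 of 29, interval 12.7 to 47.2%). Cox11, which inserts copper into the catalytic subunit, had 0.178 and 0.119 CP10k (0.07).

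The genes for haem A synthesis, Cox10 and Cox15, were at very low levels. Cox10 had 0.137 CP10k in TSF cells and 0.174 in CM cells (-0.05), and Cox15 had 0.0405 and 0.106 CP10k (-0.09), with a UMI in 13 of 139 and 4 of 29 cells. Cox15 passed the filter only through the CM library, where its mean was higher, so its direction is not read further. Of the factors for the mitochondrially made core subunits, Cox16 had the highest ratio of the assembly group, with 1.20 and 0.726 CP10k (0.35). Cox14 had 0.885 and 0.649 CP10k (0.19), Cox20 had 1.32 and 1.28 (0.03), and Cox18 had 0.347 and 0.396 (-0.05). With Cox15 counted, the group was mixed, with 6 genes above 0 and 3 below. Cox16 overlaps Adam4 and other genes on the same strand, and its count may hold some of their reads. The same holds for Cox17, which overlaps Gm21987, and for the subunit gene Cox4i1, which overlaps Gm20388.

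ATP synthase was the enzyme with the largest median difference. Of its 17 subunit genes, all passed the filter, 16 had a higher mean in TSF cells and 6 were past the fold. The median log2 ratio was 0.36. The sum was 105.5 CP10k in TSF cells and 78.5 in CM cells, a ratio of 1.34, slightly below the 1.36 of complex IV. The summed ratio was 1.17 for the 5 F1 subunits, 1.32 for the 4 subunits of the peripheral stalk, 1.40 for the 3 c ring genes and 1.51 for the 5 small membrane subunits. Single genes did not keep this order, with a ratio of 1.51 for Atp5e of the head and 1.19 for Atp5md of the membrane. The parts also differed in protein length, with a median of 298 residues for F1 and 71 for the membrane subunits. Place in the enzyme and length were not separated.

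In the head, Atp5b, the catalytic beta subunit, was the only gene of the enzyme with a lower mean in TSF cells, 6.27 CP10k against 6.39 (log2 ratio -0.02, and 0.06 with CP10k rescaled without Rpl and Rps genes). The alpha subunit Atp5a1 had 2.62 and 2.40 CP10k (0.09). The RNAs of the chains that form the hexamer of the head were thus close to equal in both libraries. The gamma subunit Atp5c1, the turning shaft, had 4.87 and 4.45 CP10k (0.11), and the delta subunit Atp5d had 6.29 and 5.68 (0.13). The epsilon subunit Atp5e, only 52 residues long and the most abundant RNA of the enzyme in TSF cells, was past the fold with 9.94 and 6.60 CP10k (0.53).

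The stalk holds the head still while the ring turns. Atp5j, coupling factor 6, was its gene past the fold, with 5.60 CP10k in TSF cells and 3.37 in CM cells (0.59). Atp5o, the protein that fixes the stalk to the head and confers oligomycin sensitivity, had 3.88 and 2.79 CP10k (0.36). A second annotated Atp5o entry overlaps it. Subunit b, Atp5f1, had 4.22 and 3.63 CP10k (0.17), and subunit d, Atp5h, had 4.77 and 4.18 (0.16).

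For the c ring, the 3 genes printed above encode the same mature subunit at different levels. Atp5g3 had 9.18 CP10k in TSF cells and 5.61 in CM cells, a log2 ratio of 0.62, past the fold. Atp5g2 had 9.75 and 7.40 CP10k (0.36), and Atp5g1 had 5.53 and 4.44 (0.26). Of the c subunit RNA, Atp5g3 made up 37.5% in TSF cells and 32.1% in CM cells, Atp5g2 39.9% and 42.4%, and Atp5g1 22.6% and 25.4%. The order of the 3 genes was the same in both libraries, and of the 3 shares only that of Atp5g3 was larger in TSF cells. Since the 3 RNAs are alike over much of their coding end, how the authors' counting split reads among them could bear on these shares.

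The small membrane subunits sit beside the ring and shape the dimers that bend the cristae. Atp5mpl had 7.44 CP10k in TSF cells and 3.53 in CM cells, a log2 ratio of 0.90, the highest of all members. Atp5k, subunit e, had 3.65 and 2.09 CP10k (0.59), and Atp5l, subunit g, had 6.76 and 4.35 (0.54). Subunits e and g are partners at the dimer interface. Atp5j2, subunit f, had 7.27 and 5.28 CP10k (0.40), and Atp5md, the DAPIT subunit, had 7.47 and 6.29 (0.21). The inhibitor of the enzyme, listed as Atpif1 and so outside the rule, was level at 5.29 and 5.21 CP10k (0.02).

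**Figure D2:**
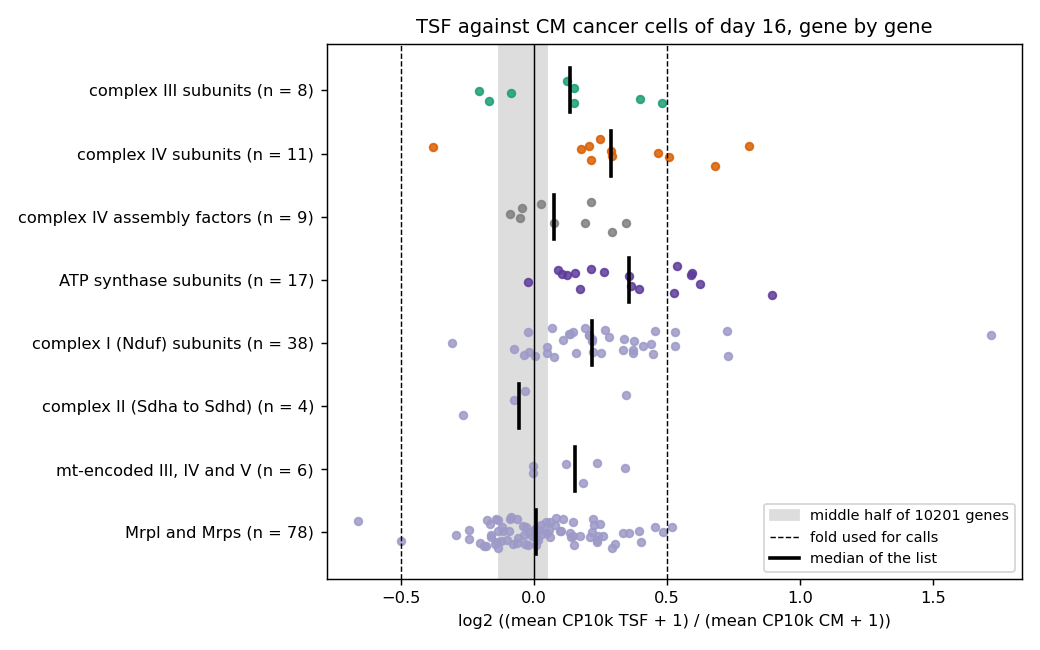
Log2 ratio of mean CP10k plus 1, TSF over CM (horizontal axis), for each gene that passed the filter (1 point per gene, spread vertically for legibility), with the median of each list (black bar), the fold used for calls (dashed lines) and the middle 50% of all 10201 genes (grey band, from -0.13 to 0.05). The medians of ATP synthase (0.36), complex IV (0.29), the Nduf list of complex I (0.22) and complex III (0.14) lie to the right of the band. So do those of the mitochondrially encoded genes (0.15) and the assembly factors (0.07). The medians of complex II (-0.06) and the mitochondrial ribosome (0.01) lie within it.

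Complex I, described only for comparison, had a median of 0.22 over 38 Nduf subunit genes, of which 33 were above 0 and 5 past the fold toward TSF. This list was taken by symbol and holds Ndufa4, which is counted again below with the partners of complex IV. The 4 complex II genes had a median of -0.06. The 78 genes of the mitochondrial ribosome (Mrpl and Mrps) had a median of 0.01, with 1 past the fold in each direction. Nuclear genes for mitochondrial proteins thus had no single shift in common, and the differences between these lists were not tested.

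The partners encoded by mitochondrial DNA had a lower median log2 ratio than the 45 members together, but not a lower one than complex III alone. For complex IV, mt-Co1, which holds the catalytic centre, had 28.7 CP10k in both libraries (log2 ratio 0.00), mt-Co2, which receives electrons from cytochrome c, had 34.0 in TSF cells and 26.6 in CM cells (0.34), and mt-Co3 had 31.6 and 28.9 (0.12). For complex III, mt-Cytb, its single mitochondrial subunit, had 30.2 CP10k in both (0.00). For ATP synthase, mt-Atp6, the subunit along which protons enter the ring, had 38.4 and 32.4 CP10k (0.24), and mt-Atp8 had 3.72 and 3.15 (0.19). Their median was 0.15 over 6 genes, and none was past the fold. It was 0.21 for the 45 members and 0.14 for the complex III subunits among them.

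Of 32 listed partners with other names, 31 were in the table. Among these, 21 had a log2 ratio above 0 (67.7%, against 40.3% of all 10201 genes that passed the filter), and the median was 0.04. Only Higd1a was past the fold (3.23%, against 1.14% of all genes toward TSF). Ttc19 passed the filter only through the TSF library and Lyrm7 only through the CM library. Each was higher in the library through which it passed, so their directions are not read further. Higd1a, a small hypoxia-induced protein that associates with complex IV, had 2.49 CP10k in TSF cells and 1.27 in CM cells (0.62). Ndufa4, now counted as a complex IV subunit, had 7.74 and 5.38 CP10k (0.45), and Uqcc2, a complex III assembly factor, had 4.06 and 2.62 (0.49). Cyc1, the cytochrome c1 of complex III, had 1.13 and 1.07 CP10k (0.04), and Cycs, cytochrome c itself, had 3.03 and 3.05 (-0.01). Cytochrome c and cytochrome c1 were thus near equal in both libraries.

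Across the members, the difference between the libraries ran with the length of the protein. The 30 members of at most 150 residues that passed the filter had a median log2 ratio of 0.32, 29 of them were above 0, and all 9 past the fold were among them. The 14 longer members had a median of 0.08, with 8 above 0 and none past the fold. Across the 44 members with a known coding length, the Spearman correlation between residues and log2 ratio was -0.59, given as a description of genes measured in the same 2 libraries. Within enzymes it was -0.74 over the 17 ATP synthase genes, -0.76 over the 8 complex III genes and -0.25 over 11 complex IV genes. Between mean level and log2 ratio it was 0.15, 0.86 and 0.65 in the same order. Length thus had the stronger correlation in ATP synthase, and level in complex III and complex IV.

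The same direction was seen in other genes. The Spearman correlation was -0.15 over 9863 genes with a length, and -0.39 over the 1508 of them with a mean of at least 1 CP10k. For level the sign depended on the genes taken. Over the 45 members, the Spearman correlation between mean level and log2 ratio was 0.57, over genes of at least 1 CP10k it was 0.16, and over all 10201 genes it was -0.16. The members are a short group, with a median of 111 residues against 450 for all genes, and short length and high level were not separated here.

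**Figure D3:**
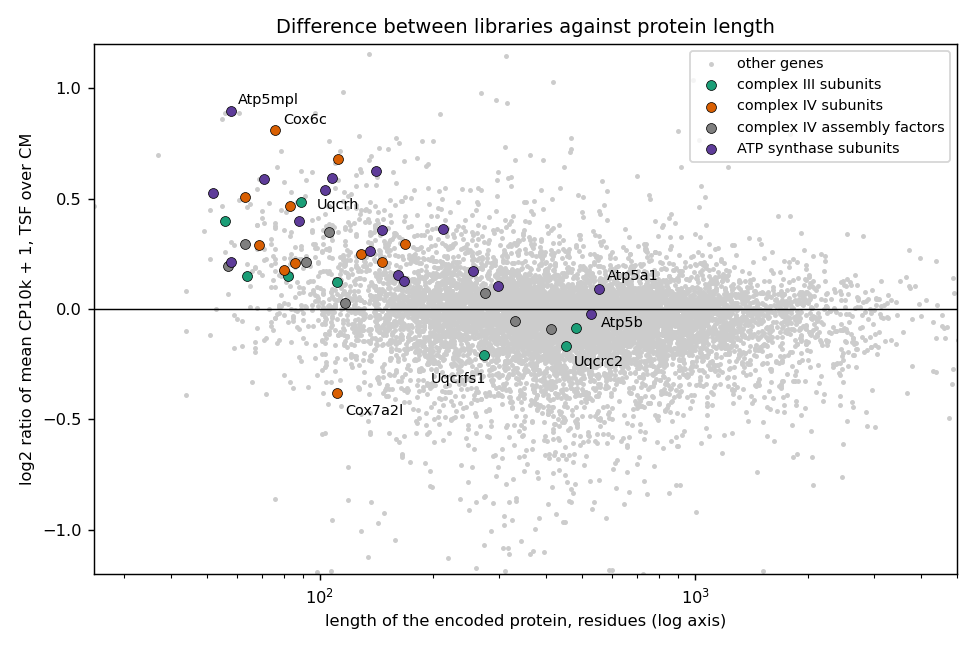
Log2 ratio of mean CP10k plus 1, TSF over CM (vertical axis), against the length of the encoded protein in residues (horizontal log axis) for 44 members (coloured by complex) and the other genes that passed the filter (grey), of which 46 lie outside the axes. Members of at most 150 residues reach from -0.38 (Cox7a2l) to 0.90 (Atp5mpl), and the 4 longest, Atp5a1, Atp5b, Uqcrc1 and Uqcrc2, lie between -0.17 and 0.09.

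Cytosolic ribosomal protein genes, also short and abundant, were higher in TSF cells too. The 95 Rpl and Rps genes that passed the filter had a median log2 ratio of 0.25, with 77 above 0 and 16 past the fold toward TSF. They took 23.9% of the CP10k of TSF cells and 18.6% of that of CM cells. When CP10k was rescaled to the sum without them, 11 members were past the fold and the complex III median became 0.22. Their part in the members' differences was otherwise not tested.

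The share of cells with a UMI was near its ceiling for most members and adds little. Of the 45, 31 reached 90% of cells or more in both libraries. In 30 the share was higher in TSF cells and in 15 it was lower, and for none were the exact intervals of the libraries apart. The same counts were not made over all genes, so they are not read as a property of the members. Among the CM cells, 19 members were seen in 28 of 29 cells and 5 in all 29. Atp5k had the widest gap among the members past the fold, with 96.4% of TSF cells (134 of 139, interval 91.8 to 98.8%) against 82.8% of CM cells (24 of 29, interval 64.2 to 94.2%). The intervals cover counting error only, and shares depend on depth per cell, which was not equalised.

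**Figure D4:**
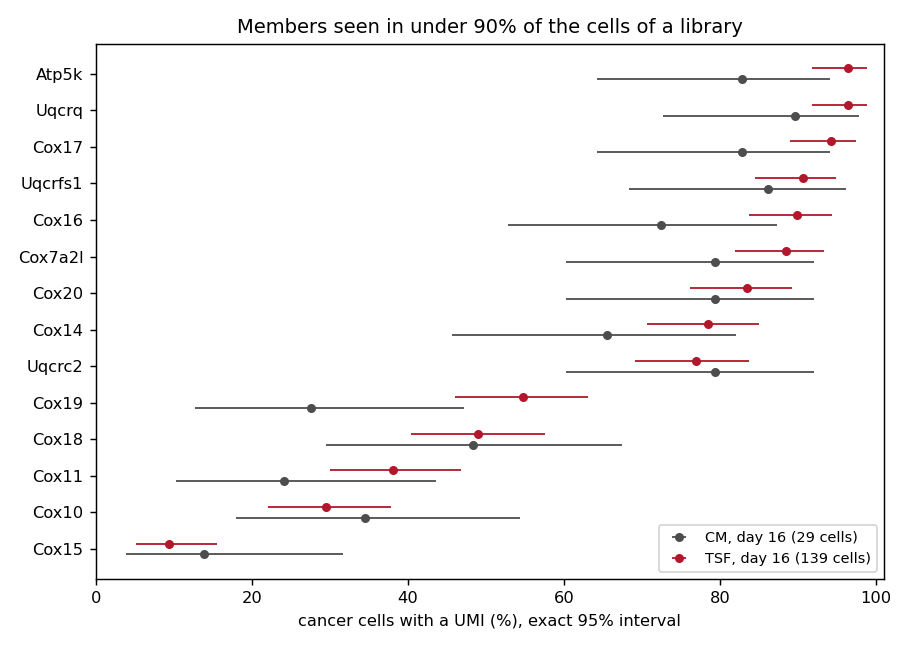
Percent of cancer cells with a UMI (horizontal axis) for the 14 members that passed the filter and were seen in under 90% of the cells of the CM library (grey, 29 cells) or the TSF library (red, 139 cells), with exact 95% intervals as bars. The 2 intervals overlap for every gene, and Cox19 (54.7% and 27.6%) shows the widest gap.

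The 2 sets of cancer cells also differed in ways that are not specific to respiration. Cells under 10000 UMIs made up 10.1% of the TSF cells (14 of 139) and 27.6% of the CM cells (8 of 29). Of the authors' fine clusters, the one with most TSF cancer cells held 61.2% of the TSF cells (85) and 20.7% of the CM cells (6). Dissociation and stress genes (8 genes, among them Fos, Jun, Egr1 and Atf3) summed to 33.9 CP10k in TSF cells and 94.3 in CM cells, with 7 of 8 lower in TSF cells. The percent of UMIs from mitochondrial genes was alike, with medians of 1.99% and 1.72%. The part of depth, cluster and stress genes in the members' differences was not tested, as no matrix of single cells was used.

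The carcinoma label was checked against markers. The 6 carcinoma genes (Epcam, 4 keratins and CD90.1) summed to 30.7 CP10k in both libraries, most of it Krt18 (15.8 CP10k in TSF cells and 18.3 in CM cells) and Krt8 (11.1 and 10.3). Epcam was past the fold toward TSF, with 1.28 and 0.195 CP10k (log2 ratio 0.93) and a UMI in 68.3% of TSF cells and 27.6% of CM cells. CD90.1, by which the authors recognised the cancer clusters, had a UMI in 34.5% and 6.90% of the cells. Leukocyte genes summed to 1.01 CP10k in TSF cells, nearly all of it S100a8 and S100a9 in 2 and 4 cells, and to 0.00958 in CM cells, and Lyz2, C1qa and Csf1r were at 0 in both. Lung epithelial genes summed to 0.0658 and 0.476 CP10k with Sftpc at 0 in both, endothelial genes to 0.163 and 0.0588, and mesenchymal genes to 0.613 and 0.0907 with Pdgfrb at 0 in both. The part of other cell types in the members' differences was not tested. The day 16 libraries shared 31 cell barcodes, none of them among cancer cells.

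Nuclear respiratory genes are known targets of the transcription factors NRF1, GABPA (an ETS factor) and YY1, so the members' promoters were read for their core letters. RefSeq promoters of GRCm38.p6, from 250 bases before to 50 after the annotated start, were matched for 39 of the 50 members, and both strands were searched. The NRF1 core GCGCATGC was in 6 of 39 (15.4%), against 3.05% of the promoters of all 27025 genes and 6.65% of 8101 genes seen in at least 10% of these cells. The ETS core CCGGAAG was in 16 (41.0%), against 9.93% and 22.8%. The YY1 core AAGATGG was in 6 (15.4%), against 7.28% and 8.92%. These are letter matches and not binding sites.

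Of the 9 members past the fold, Atp5mpl (0.90) and Cox6c (0.81), with the highest log2 ratios, had no promoter at hand. Among the other 7, 3 held the NRF1 core and the ETS core together. So did 4 of the 39 members, 0.581% of all genes and 1.52% of genes seen in these cells. The 7 were picked by their log2 ratio, and a link between it and paired cores was not tested. The 3 with both cores, Cox6a1, Atp5k and Atp5l, are printed to show how the cores are placed. Each line holds the 250 bases before the start, 5′ to 3′ on the strand of the gene, with the cores that fall within them in capitals. They cover chr5:115348959-115349208, chr5:108434400-108434649 and chr9:44920743-44920992, all on the minus strand.
Cox6a1: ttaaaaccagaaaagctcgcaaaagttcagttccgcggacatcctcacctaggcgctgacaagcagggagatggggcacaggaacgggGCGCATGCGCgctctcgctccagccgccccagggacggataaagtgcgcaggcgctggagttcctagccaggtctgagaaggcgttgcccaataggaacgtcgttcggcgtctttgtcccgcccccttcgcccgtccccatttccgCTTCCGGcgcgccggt
Atp5k: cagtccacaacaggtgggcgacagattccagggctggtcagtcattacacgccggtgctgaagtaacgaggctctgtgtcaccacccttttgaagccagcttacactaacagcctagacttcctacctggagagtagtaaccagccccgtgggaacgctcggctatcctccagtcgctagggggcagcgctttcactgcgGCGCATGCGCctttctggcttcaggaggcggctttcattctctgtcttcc
Atp5l: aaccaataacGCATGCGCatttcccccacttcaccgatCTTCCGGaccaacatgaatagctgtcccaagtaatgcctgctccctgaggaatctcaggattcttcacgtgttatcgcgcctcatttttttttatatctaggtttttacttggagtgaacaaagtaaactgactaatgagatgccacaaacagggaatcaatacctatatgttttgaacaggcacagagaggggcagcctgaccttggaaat

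In Cox6a1 and Atp5k the NRF1 core is met on both strands in overlapping letters, starting 162 and 50 bases before the start. In Atp5l it lies 240 bases before the start, on the opposite strand. The ETS core begins 16 bases before the start in Cox6a1 and 212 bases before it in Atp5l, while in Atp5k, and once more in Atp5l, it falls in the bases after the start that are not printed. No NRF1 and ETS cores overlap in these windows. The distances are from the RefSeq start. In GENCODE the genes Cox6a1 and Atp5k begin further upstream, at chr5:115348981 and chr5:108434448, inside the printed windows. The other NRF1 core holders were Uqcrc1, Uqcr11 and Atp5g2, with log2 ratios of -0.08, 0.40 and 0.36, so a core stood in promoters of genes on both sides of 0.

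The RNAs of factors that act on such promoters were mostly at low levels, where the pseudocount compresses differences. Of 10 listed regulators, 9 passed the filter, none was past the fold, 7 were below 0, and the median log2 ratio was -0.07. Over all 10201 genes that passed the filter, 6095 were below 0 and the median was -0.03. The part of these factors in the members' differences was not tested. Ppargc1a, the coactivator of mitochondrial biogenesis in brown fat and muscle, had no UMI in any cancer cell of either library. Yy1 had the highest ratio, with 1.28 CP10k in TSF cells and 0.896 in CM cells (0.27).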

How the data were processed

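The members and gene lists were chosen with earlier results of these data known. 10x Genomics 5' libraries were sequenced, and the authors mapped reads with Cell Ranger to GRCm38.p6 extended by CD90.1, removed ambient RNA with SoupX, and used Seurat 4.1.0 (version per the labels' processing notes). They checked cell multiplets against scDblFinder scores and removed none among the cancer cells, and no doublet caller was run here. Deposited values of 2 kinds were used. The authors' table of cancer cells gives a normalised signal (mean CP10k), the number of cells with a UMI (a count) and the percent of cells with a UMI for each gene in each day 16 library. The authors' cell table gives UMI counts per cell, the percent of mitochondrial UMIs, and their cell types. The same gene table holds the authors' fold changes, p-values, q-values and a ranking score, which compare cells of 2 libraries and were not used, nor was their gene set table. The cell table also holds 2 libraries that were not used.

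Log2 ratios were computed with a pseudocount of 1 CP10k on genes in at least 10% of cells of either library. With 1 library per group, sampling counts behind a mean CP10k are unknown, so only shares carry an interval (Clopper-Pearson, 95%), and a share of 0 an upper limit of 3 cells of the total, for counting error only. CM cells, being 29, limit the precision. Genes named were all members past the fold, the highest and lowest of each complex and all isoform pairs, and the other members were then given as well. Positions, coding lengths (principal transcript) and coding sequences came from GENCODE M21 on GRCm38, and promoters from RefSeq. The code for the ratio and its calls was checked on levels changed by known folds. No sampling noise was added, so the check says nothing on error from few cells or 1 library. Alternatives were another pseudocount, other filters, other scalings and other fold thresholds. Scripts ran in Python 3.11.15 with Biopython 1.88, matplotlib 3.10.9, numpy 2.4.6, scipy 1.17.1 and pandas 2.3.3.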

Additional observations from a re-analysis of the deposited data

How the results depend on the processing

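No median of an enzyme changed sign under any alternative tried. Among the members that passed the filter, only Atp5b did, from -0.02 to 0.06 without Rpl and Rps genes and to 0.01 after centring on the median of all genes. No paired analysis was possible because each group is 1 library. Leaving out a library was not possible for the same reason. With a pseudocount of 0.1 CP10k the number of members past the fold toward CM went from 0 to 2 (Cox7a2l at -0.58 and Cox15 at -0.55), the number toward TSF from 9 to 13, and the median of the assembly factors from 0.07 to 0.34, while 10.1% of all genes were then past the fold toward TSF, 21.9% toward CM, and the median of all genes was -0.13. Requiring 25% of cells moved the assembly factor median to 0.13, and leaving out Rpl and Rps genes moved the complex III median from 0.14 to 0.22. A fold of 0.3 called 16 members toward TSF and 1 toward CM (355 and 871 of all genes), and a fold of 1 called 0 (13 and 54 of all genes, against 116 and 293 at the fold used). Without Rpl and Rps genes 11 members and 200 genes were called toward TSF, and after centring on the median of all genes 10 and 140. Of the values of single members under the alternatives, 215 kept their side of the fold and 9 came to lie past it (Uqcrh in 3 settings, Cox7a2 in 2, and Cox7a2l, Cox15, Cox16 and Cox19 with the pseudocount of 0.1). With 29 CM cells, a UMI in up to 10.3% of them could be missed.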

Other observations

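No gene table of day 11 was used, so the members could not be followed to the earlier stage. For the cancer cells of day 11, the median percent of UMIs from mitochondrial genes, which covers RNAs of mitochondrial DNA and none of the members, was 1.91% in the CM library (6 cells), and 1.75% and 1.80% in the TSF libraries labelled a and b (32 and 43 cells).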
